A study of Mus musculus with 5 samples.

Results

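The Cebp genes were examined in sorted myeloid progenitor cells of mice with and without a truncated Bcor, a component of a Polycomb repressive complex. The genes are Cebpa, Cebpb, Cebpd, Cebpe, Cebpg and Cebpz, found by matching the gene identifiers of the count table to these symbols. They are 6 of the 52550 genes in the table, and all 6 were among the 11766 genes that passed the filter on low counts. RNA was taken from sorted Lin-cKit+Sca1- (KL) bone marrow cells, the fraction that holds committed myeloid progenitors, and sequenced from the 3′ end of transcripts. The mutant group, BcorΔE9-10, came from scl-Cre-ERT +; Bcorfl/y males (n = 3 libraries) and the control group, BcorWT, from scl-Cre-ERT +; Bcorwt/y males (n = 2 libraries). Mice of both groups carried the Cre transgene, were dosed with tamoxifen at 1 mg for 5 days when 3 to 6 months old, and were studied 20 weeks later. The Cre is tamoxifen-inducible and driven by stem cell regulatory sequence of Tal1 (Scl), so the allele is recombined in haematopoietic stem and progenitor cells and inherited by their progeny, and any cell that escaped recombination keeps an intact gene. Whether each library was from a separate animal is not given in the labels, so p-values measure the spread between these libraries only.

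C/EBP proteins are basic leucine zipper (bZIP) transcription factors that bind DNA as dimers with one another and with other bZIP proteins. In the marrow, Cebpa is needed to form granulocyte-monocyte progenitors and restrains division, Cebpb takes part in the faster granulopoiesis that follows infection or cytokine stimulation, and Cebpe acts later, in the differentiation steps at which secondary granule genes are switched on. Cebpd is an inducible member found in maturing granulocytes. Cebpg lacks the activation domain of the other members and pairs with them and with Atf4. Cebpz is listed with the family by its name only: it encodes a CCAAT-binding nucleolar protein that is not a bZIP factor, and it is a different gene from Ddit3 (CHOP), whose product has also been called C/EBP zeta.

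The 5 libraries held between 5998924 and 8303999 counts, so by total counts alone a level of 1 CPM (counts scaled to a common library total) stood for 6.0 to 8.3 counts. The CPM given here were also scaled by a TMM factor for each library (0.931 to 1.079), which shifts these figures slightly. Among markers of the KL sort, Mpo was at 4937 ± 622 CPM (SD, n = 3) in BcorΔE9-10 and 5238 ± 78.2 CPM (SD, n = 2) in BcorWT and the stem cell marker Ly6a had no more than 8 counts in any library. Kit, by which the cells were sorted, was itself higher in BcorΔE9-10 (51.0 ± 2.14 against 18.9 ± 0.977 CPM, limma adjusted p = 9.82e-05). Some genes of maturing and mature neutrophils were abundant in both groups although the sort was for lineage-negative cells, with S100a8 at 74648 ± 6236 CPM (SD, n = 3) in BcorΔE9-10 and 113560 ± 5167 CPM (SD, n = 2) in BcorWT. Others were scarce, such as Cxcr2 (2.66 ± 0.367 against 3.53 ± 1.84 CPM) and Stfa2l1 (1.8 ± 0.589 against 1.58 ± 0.773 CPM). Across all genes tested, 10.1% were called at a limma adjusted p under 0.05, 6.02% higher and 4.09% lower in BcorΔE9-10. Of 10 mature neutrophil markers 5 were called lower and 5 were not called, and the summed level of the list was 107911 to 126228 CPM in BcorΔE9-10 against 164740 to 177935 CPM in BcorWT. Most of that sum was S100a8 and S100a9 (S100a9 at 41934 ± 3141 against 55438 ± 3120 CPM), so it says little of the other markers. For 13 monocyte-macrophage markers the sum was 1171 to 1312 against 1543 to 1551 CPM, most of it Ly6c2 (964 ± 43.6 against 1238 ± 13 CPM). Among these markers Ly6c2 alone was called, lower. None of these markers was called with scaling to total counts or without BcorΔE9-10 library 1 or 3 or BcorWT library 1, and 2 were lower after GC correction. Of 10 tested eosinophil, basophil and mast cell markers 6 were lower and 1 higher, with sums of 599 to 867 against 1310 to 1620 CPM, and of 7 tested erythroid markers 1 was higher, with sums of 103 to 216 against 63.3 to 88.9 CPM. That erythroid count was unstable, with 6 called higher with no filter, 4 by edgeR, with the replicate block and without BcorΔE9-10 library 1, and 0 with sample quality weights, after GC correction or without any 1 of the other libraries. None of 5 tested B lymphoid markers was called (sums of 10.6 to 20.9 against 7.56 to 13.3 CPM). Of 14 tested genes of the response to cell handling, 4 were higher (Fos, Fosb, Zfp36, Nr4a1) and 2 lower (Hspa1a, Hspa1b), with sums of 1869 to 2095 against 1529 to 2748 CPM. Single libraries turned this balance: 5 were higher and 0 lower without BcorWT library 1, 2 higher and 5 lower without BcorWT library 2, and 1 higher and 1 lower without BcorΔE9-10 library 1. In such sorted bulk samples fewer cells of a type and less RNA per cell cannot be told apart, and the part of these mixtures in the results below was not tested. The BcorWT libraries also differed more from each other (chi-square per gene 11.6, where sampling noise alone gives about 1) than any pair of BcorΔE9-10 libraries (6.01 to 7.01). The neutrophil collagenase gene Mmp8 shows this, at 5663 counts in BcorWT library 1 and 1867 in library 2. Bcor transcripts were 1.72-fold higher in BcorΔE9-10 (limma adjusted p = 0.0313), a call lost after GC correction and without BcorWT library 1 (limma adjusted p = 0.254 and 0.272) or any 1 BcorΔE9-10 library (0.0521 to 0.0892), but counts of 3′ ends do not report on loss of internal exons, so the labels were not checked by them.

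Of the 6 Cebp genes 2 were called, where 10.1% of all genes tested were called, 6.02% higher and 4.09% lower. They were Cebpb and Cebpg, and both were higher in the mutant cells. The group ranges of CPM did not overlap for 3 of the 6 (Cebpb, Cebpg and Cebpz, each higher), where 22.6% of all tested genes lay wholly higher, 20.3% wholly lower and 42.8% did not overlap in either direction. The summed level of the 6 genes was 488, 467 and 459 CPM in BcorΔE9-10 and 395 and 478 CPM in BcorWT, so the totals of the 2 groups overlapped.

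**Figure D1:**
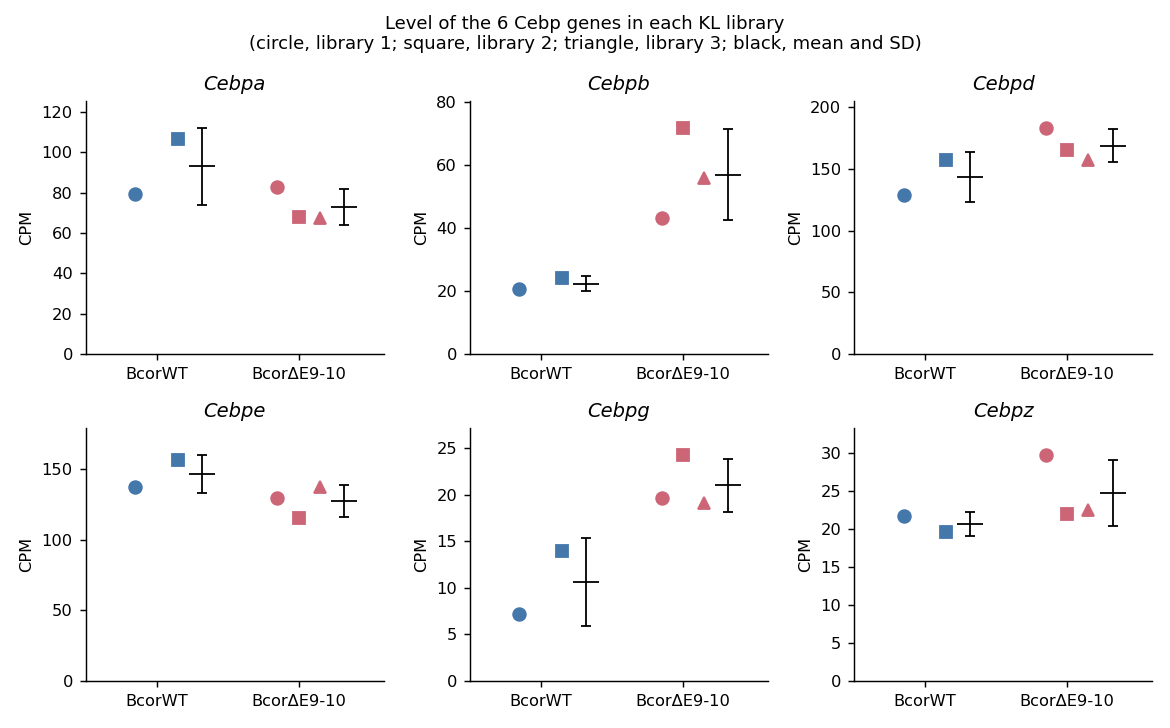
Level of each Cebp gene (vertical axes, CPM after TMM scaling, starting at 0) in the 2 BcorWT and 3 BcorΔE9-10 libraries, 1 point per library, with the group mean and SD in black. Every BcorΔE9-10 point lies above both BcorWT points for Cebpb, Cebpg and, by a narrow margin, Cebpz, and the groups overlap for Cebpa, Cebpd and Cebpe.

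Cebpa was lower on average in BcorΔE9-10 without passing the test. It had 702, 417 and 576 counts in BcorΔE9-10 and 560 and 719 in BcorWT. After scaling these were 82.97, 68.05 and 67.32 CPM against 79.52 and 106.5 CPM. BcorΔE9-10 library 1 lay above BcorWT library 1, so the groups overlapped. The fitted log2 fold change was -0.34 (SE 0.15, 95% interval -0.66 to -0.02, limma adjusted p = 0.166). Without BcorWT library 1, the lower of the controls, it was -0.56 and passed the threshold (limma adjusted p = 0.0452), and without BcorWT library 2 it was -0.13 (limma adjusted p = 0.691).

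Cebpb had the largest difference of the family. Its counts were 366, 440 and 479 in BcorΔE9-10 and 145 and 162 in BcorWT, or 43.26, 71.8 and 55.98 CPM against 20.59 and 24.0 CPM. The lowest BcorΔE9-10 library lay well above the higher BcorWT library, although the mutant libraries also spread more widely (57.01 ± 14.3 CPM, SD, n = 3) than the controls (22.3 ± 2.414 CPM, SD, n = 2). The log2 fold change was 1.31 (SE 0.22, 95% interval 0.85 to 1.77, limma adjusted p = 0.00128), a 2.48-fold difference that ranked 563 of the 11766 genes when ordered from the highest rise. Under the alternative settings it stayed between 1.14 and 1.5. The highest of its mutant values was in library 2, the shallowest of the 5.

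Cebpd and Cebpe, the most abundant members, differed little between the groups, with estimates of opposite sign and neither called. Cebpd gave 1548, 1014 and 1343 counts in BcorΔE9-10 and 906 and 1062 in BcorWT (183, 165.5 and 157 against 128.7 and 157.4 CPM), with BcorΔE9-10 library 3 level with BcorWT library 2. Its log2 fold change was 0.24 (SE 0.12, 95% interval -0.02 to 0.51, limma adjusted p = 0.241). Cebpe gave 1099, 708 and 1174 counts against 966 and 1055 (129.9, 115.5 and 137.2 against 137.2 and 156.3 CPM). BcorΔE9-10 library 3 and BcorWT library 1 had the same Cebpe level, and the remaining mutant libraries lay below both controls. The log2 fold change of Cebpe was -0.20 (SE 0.12, 95% interval -0.46 to 0.06, limma adjusted p = 0.331). With 708 or more counts of either gene in each library, both intervals leave out a change as large as that of Cebpb.

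Cebpg, the least abundant member by group mean, was higher in BcorΔE9-10. Its counts were 166, 149 and 164 against 51 and 94, or 19.62, 24.31 and 19.17 CPM against 7.242 and 13.93 CPM. All 3 mutant libraries lay above both controls, and of the controls library 1 lay well below library 2. The log2 fold change was 1.04 (SE 0.27, 95% interval 0.48 to 1.61, limma adjusted p = 0.0205), or 2.06-fold. The call rested on single libraries: without BcorWT library 1 the log2 fold change was 0.56 (limma adjusted p = 0.288), and without BcorΔE9-10 library 2 it was 0.95 (limma adjusted p = 0.0618).

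Cebpz gave 252, 135 and 192 counts in BcorΔE9-10 and 153 and 132 in BcorWT, or 29.78, 22.03 and 22.44 CPM against 21.73 and 19.56 CPM. The groups did not overlap, but the gap between them (22.03 against 21.73 CPM) was smaller than the spread within either, and the log2 fold change of 0.26 did not pass the test (SE 0.20, 95% interval -0.16 to 0.68, limma adjusted p = 0.44). After correction for the GC content of transcript ends it was 0.03. The last 300 bases of the Cebpz transcript had the lowest GC content of the family, 31.7%, against 35.7% for Cebpb, 42% for Cebpg, 50.7% for Cebpd, 51.3% for Cebpa and 58.3% for Cebpe. The same correction left Cebpb at 1.17 and Cebpg at 1.03, both called.

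**Figure D2:**
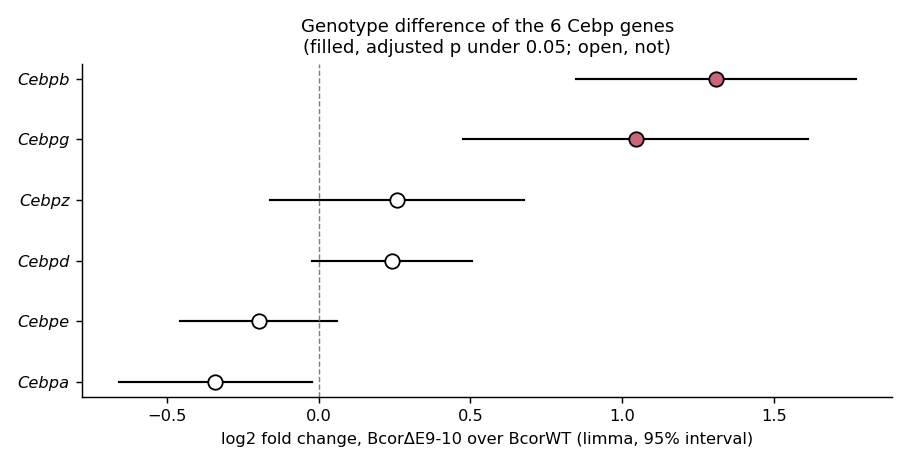
Log2 fold change of each Cebp gene (horizontal axis, BcorΔE9-10 over BcorWT) with its 95% interval from limma, 1 row per gene, filled where the adjusted p was under 0.05. Cebpb (1.31) and Cebpg (1.04) are filled and lie to the right of 0, and the other 4 genes lie between -0.34 and 0.26.

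The calls were repeated under 16 other choices of test, scaling, filter and libraries, in which Cebpb was called 16 times, Cebpg 14 times and Cebpa 1 time. The share of all genes called, to be read beside these counts, was 11.2% with the quasi-likelihood test of edgeR, 10.9% with DESeq2, 10.4% with DESeq2 size factors and 12% with scaling to total counts. It was 6.65% with no filter on low counts, 11.8% with at least 10 counts in every library, 10.6% at equal depth and 8.52% with sample quality weights. It was 12.4% with the replicate number as a block, 8.98% after GC correction and 10.9% with both. Without each BcorΔE9-10 library in turn it was 8.05%, 6.72% and 6.33%, and without BcorWT library 1 or 2 it was 4.54% or 9.65%. Cebpd, Cebpe and Cebpz were called in none of the 16.

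**Figure D3:**
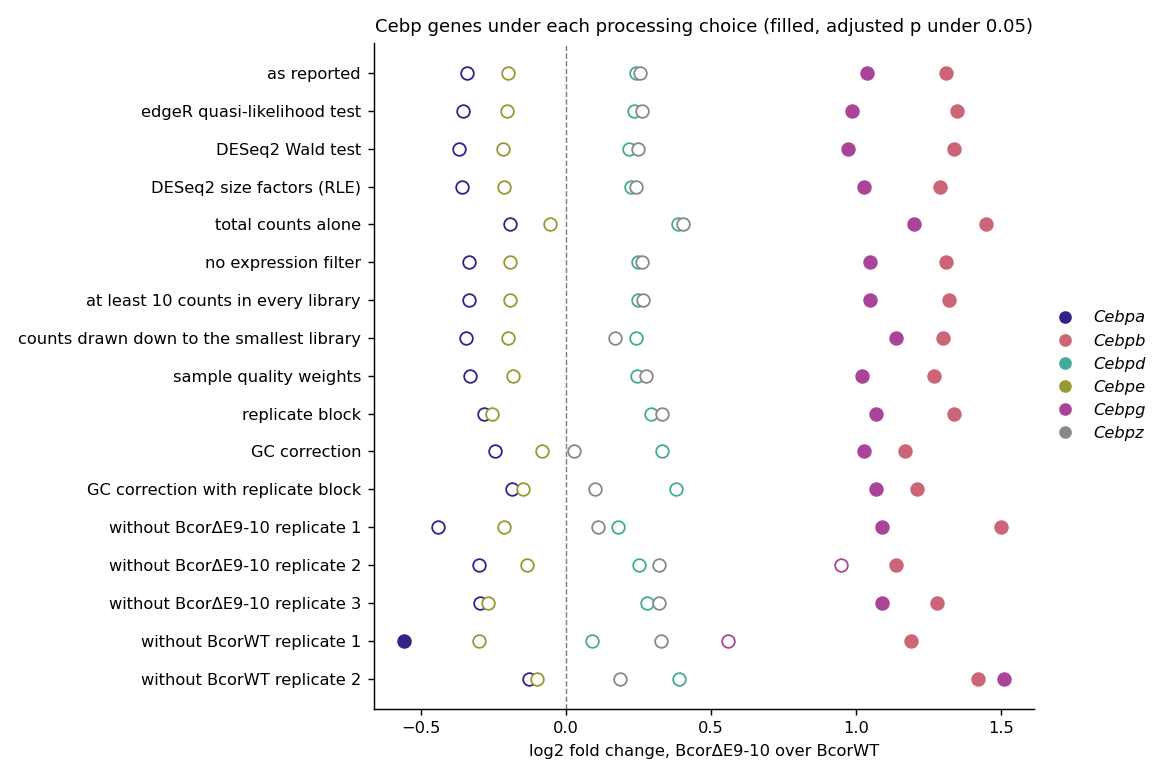
Log2 fold change of each Cebp gene (horizontal axis) as reported and under each of 16 other processing choices (rows), filled where the adjusted p was under 0.05. Cebpb is filled in every row, Cebpg in all but those without BcorΔE9-10 replicate 2 and without BcorWT replicate 1, and Cebpa only without BcorWT replicate 1.

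The balance of Cebpa to Cebpb was read within each library as the ratio of their counts, which does not depend on how libraries are scaled to each other. In BcorWT there were 3.86 and 4.44 Cebpa counts for each Cebpb count. In BcorΔE9-10 there were 1.92, 0.948 and 1.2, so all 3 mutant libraries lay below both controls and in BcorΔE9-10 library 2 Cebpb was the more abundant. The mean log2 ratio was 0.38 ± 0.52 (SD, n = 3) in BcorΔE9-10 and 2.05 ± 0.14 (SD, n = 2) in BcorWT, a difference of -1.67, or 3.19-fold. The exact two-sided permutation test over libraries gave p = 0.2, which is the smallest value that the 10 arrangements of 3 against 2 allow. Of the counts of both genes together, Cebpb took 20.6% (95% Wilson interval 17.7 to 23.7) and 18.4% (16 to 21.1) in the BcorWT libraries. It took 34.3% (31.5 to 37.2), 51.3% (48 to 54.7) and 45.4% (42.4 to 48.4) in the BcorΔE9-10 libraries. No mutant interval met a control interval. Among the mutant libraries, that of library 1 was also apart from those of the other two, and these intervals cover counting error only. Of the 2 genes in the ratio Cebpb passed the test (log2 fold change 1.31) and Cebpa did not (-0.34). Without each library in turn the difference in the ratio ran from -1.96 to -1.45 on the log2 scale. The ratio was not corrected for GC content, which differed between the transcript ends (51.3% for Cebpa, 35.7% for Cebpb). After that correction both fitted log2 fold changes were smaller, at 1.17 for Cebpb and -0.243 for Cebpa.

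**Figure D4:**
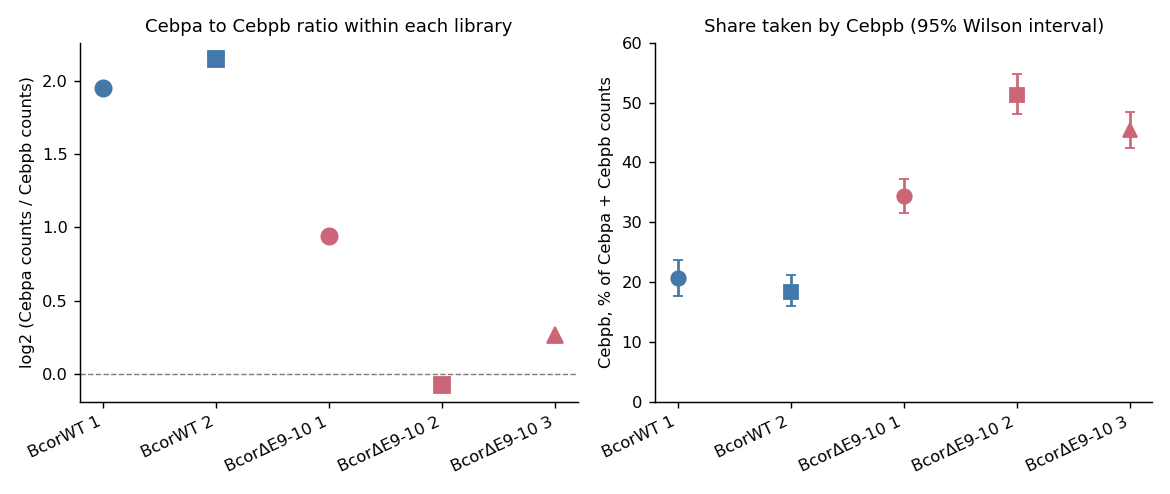
Left, log2 ratio of Cebpa to Cebpb counts in each library, with a dashed line at 0 where both are equal. Right, percentage of the summed Cebpa and Cebpb counts taken by Cebpb in each library, with its 95% Wilson interval. The BcorWT libraries are at 20.6% and 18.4%, below the BcorΔE9-10 libraries at 34.3% to 51.3%.

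Other pairs of members were read in the same way, and for 11 of the 15 pairs the ratios did not overlap between the groups. The share for pairs of other genes was not computed, and 42.8% of single tested genes did not overlap either. The count is thus no trait of this family. The pairs without overlap included genes that were not called, such as Cebpa to Cebpd (0.453, 0.411 and 0.429 in BcorΔE9-10 against 0.618 and 0.677 in BcorWT) and Cebpd to Cebpe (1.41, 1.43 and 1.14 against 0.938 and 1.01). The ratio of Cebpb to Cebpe, the factor of late granule genes, was 0.333, 0.621 and 0.408 in BcorΔE9-10 and 0.15 and 0.154 in BcorWT, a log2 difference of 1.53. The ratio of Cebpa to Cebpg was 4.23, 2.8 and 3.51 against 11 and 7.65, a log2 difference of -1.4. The ratio of Cebpb to Cebpg, the genes that both rose, overlapped between the groups (2.2, 2.95 and 2.92 against 2.84 and 1.72). That of Cebpa to Cebpe also overlapped (0.639, 0.589 and 0.491 against 0.58 and 0.682). The pairs share genes and libraries, so these ratios are not separate pieces of evidence.

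The order of the genes by mean CPM was nearly the same in both groups. In BcorWT it ran Cebpe, Cebpd, Cebpa, Cebpb, Cebpz and Cebpg, and in BcorΔE9-10 Cebpd came before Cebpe with the rest unchanged. The library ranges of Cebpe and Cebpd and of Cebpb and Cebpz overlapped in BcorWT, as did those of Cebpa and Cebpb and of Cebpz and Cebpg in BcorΔE9-10, so the order within these pairs is not settled. Divided by exon length, the levels in BcorWT were 118.5 CPM per kb for Cebpe, 38.18 for Cebpd, 35.29 for Cebpa, 14.83 for Cebpb, 5.067 for Cebpz and 1.883 for Cebpg. Of these neighbours only Cebpd and Cebpa had overlapping library ranges. In BcorΔE9-10 they were 103 CPM per kb for Cebpe, 44.97 for Cebpd, 37.91 for Cebpb, 27.61 for Cebpa, 6.075 for Cebpz and 3.742 for Cebpg, so Cebpb stood above Cebpa on this scale. The range of Cebpb (28.76 to 47.74) overlapped those of both Cebpd (41.9 to 48.84) and Cebpa (25.54 to 31.48), so the place of Cebpb between Cebpd and Cebpa is not settled by the mutant libraries. Counts of 3′ ends do not grow with transcript length, which makes the order by CPM the closer one to transcript number for this method. Cebpb made up 5.11% of the summed CPM of the 6 genes in BcorWT and 12.09% in BcorΔE9-10, while Cebpa made up 21.32% and 15.43%, Cebpe 33.63% and 27.05%, and Cebpd 32.78% and 35.72%.

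Cebpa and Cebpg are neighbours on mouse chromosome 7 (build GRCm38/mm10), and of the pair only Cebpg was called. Cebpg lies on the minus strand at chr7:35046422-35056573 and Cebpa on the plus strand at chr7:35119293-35121928, with 62.7 kb between them. The 5 annotated genes that start in this gap had no count in any library. On the far side of Cebpg, Pepd, a peptidase gene, had 63, 43 and 77 counts in BcorΔE9-10 and 76 and 62 in BcorWT (log2 fold change -0.34, limma adjusted p = 0.437). The next gene with counts beyond Cebpa, Gpatch1, a splicing-associated gene, was also not called (log2 fold change -0.58, limma adjusted p = 0.417). Along this stretch Cebpg was thus the only called gene among the 4 that were measured. The other members lie on separate chromosomes, Cebpb at chr2:167688915-167690418 and Cebpd at chr16:15887286-15891031, both on the plus strand with a single exon, and Cebpe at chr14:54710363-54712174 and Cebpz at chr17:78919006-78937070, both on the minus strand with 2 and 16 exons.

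The deposited counts could include reads of overlapping genes, since the use of strand is not given in the sources used here. Cebpb shares 312 exon bases with Tmem189 on the opposite strand, none of them in the last 300 bases of its transcript, and Tmem189 was not called (226, 190 and 217 against 182 and 181 counts, log2 fold change 0.06, limma adjusted p = 0.881). Cebpd shares 559 exon bases with Spidr, again none in its last 300. Spidr held 128, 125 and 155 counts in BcorΔE9-10 and 57 and 100 in BcorWT, higher in every mutant library as Cebpd was on average, without passing the test (log2 fold change 0.68, limma adjusted p = 0.116). Cebpz shares 171 with Cebpzos, of which 45 fall in its last 300 bases, and Cebpzos held 34, 46 and 69 counts in BcorΔE9-10 and 12 and 25 in BcorWT, in the same direction as Cebpz and also not called (log2 fold change 1.27, limma adjusted p = 0.122). The part of these overlaps in the Cebpd and Cebpz counts was not tested. Of the 271 words of 30 bases in each transcript end, 10 of Cebpb, 18 of Cebpz and 2 of Cebpg occur in another gene, and none of Cebpa, Cebpd or Cebpe.

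The 250 bases before the RefSeq start of Cebpb, Cebpg and Cebpa are shown because Cebpb and Cebpg rose and Cebpa, the neighbour of Cebpg, was not called. They were read on the strand of each gene in build GRCm38.p6, and RefSeq windows were matched for these 3 of the 6 genes. The positions are chr2:167688665-167688914 (plus strand) for Cebpb, chr7:35056567-35056816 (minus strand) for Cebpg and chr7:35119043-35119292 (plus strand) for Cebpa. Capitals mark matches, on either strand, to TGACG (part of the cAMP response element) or CCAAT (the CCAAT box).
Cebpb: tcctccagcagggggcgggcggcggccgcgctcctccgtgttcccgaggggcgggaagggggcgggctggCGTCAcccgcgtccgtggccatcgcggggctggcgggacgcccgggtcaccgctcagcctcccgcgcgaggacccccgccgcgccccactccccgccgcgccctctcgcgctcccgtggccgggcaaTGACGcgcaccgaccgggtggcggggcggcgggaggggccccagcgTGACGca
Cebpg: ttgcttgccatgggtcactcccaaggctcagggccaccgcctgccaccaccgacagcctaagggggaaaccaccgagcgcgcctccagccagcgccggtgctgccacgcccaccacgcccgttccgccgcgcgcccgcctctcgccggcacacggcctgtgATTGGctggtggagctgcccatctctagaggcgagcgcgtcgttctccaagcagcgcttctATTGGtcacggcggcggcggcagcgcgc
Cebpa: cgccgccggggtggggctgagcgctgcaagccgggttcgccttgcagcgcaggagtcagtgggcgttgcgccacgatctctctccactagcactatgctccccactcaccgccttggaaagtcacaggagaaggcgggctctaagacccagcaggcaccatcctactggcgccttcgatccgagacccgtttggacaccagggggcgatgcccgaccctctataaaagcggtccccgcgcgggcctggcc

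The Cebpb window held TGACG 3 times, on the minus strand from -180 to -176 and on the plus strand from -53 to -49 and from -7 to -3, counting back from the start. That word is in 17.8% of the 32851 windows of this length. The Cebpg window held CCAAT 2 times, both on the minus strand, from -89 to -85 and from -28 to -24, a word found in 33.8% of windows. The Cebpa window held neither. The full element TGACGTCA (1.55% of windows), which contains TGACG, and the C/EBP-like word TTGCNNAA (9.56% of windows) were in none of the 3. The windows were rich in G and C, at 81.6% for Cebpb, 70.8% for Cebpg and 66.4% for Cebpa, above 99.3%, 91.7% and 85.2% of all windows. These matches describe the letters in the windows and are not measured binding sites.

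Of 12 genes of other bZIP proteins that pair with or oppose C/EBP factors 10 were tested and 1 was called, higher, and the median log2 fold change was 0.09, where 10.1% of all genes were called and their median was 0.00. The count is thus near the share over all genes, and the median turned to -0.05 without BcorΔE9-10 library 1 and to -0.15 without BcorWT library 2. The called gene was Fos, a dimer partner of Jun, with 2829, 2043 and 1788 counts in BcorΔE9-10 and 757 and 470 in BcorWT (log2 fold change 1.71, limma adjusted p = 9.78e-05). Fos is also in the list of genes that respond to cell handling, and its lowest mutant library lay far above both controls. Jun, the most abundant of the list, was not called (log2 fold change 0.18, limma adjusted p = 0.63). Ddit3 and Atf4, both partners of Cebpg, were not called (log2 fold changes of -0.32 and -0.17).

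Of 14 tested regulators of Cebp genes and proteins, 2 were higher and 1 lower, beside 6.02% and 4.09% of all genes, and the median log2 fold change was 0.18. That median was 0.06 without BcorWT library 2 and 0.02 after GC correction. Gata2, a factor of stem, mast and basophil cells, was higher in every mutant library, at 202, 155 and 171 counts against 82 and 69 (log2 fold change 1.05, limma adjusted p = 0.00726). Myb, a factor of progenitor proliferation, rose by less (0.41, limma adjusted p = 0.0201). Spi1 (PU.1), which acts with Cebpa in myeloid commitment, was lower (-0.47, limma adjusted p = 0.0154), a call lost with scaling to total counts and after GC correction (limma adjusted p = 0.0881 and 0.0527) and without BcorΔE9-10 library 1 or BcorWT library 1 (0.0524 and 0.109). The call of Myb was lost without BcorΔE9-10 library 1 or 3 or BcorWT library 2 (limma adjusted p = 0.0887, 0.0638 and 0.0887). The cytokine receptor gene Csf3r was at 30.8 ± 3.37 CPM (SD, n = 3) against 31.6 ± 11.1 CPM (SD, n = 2), and Stat3 and Runx1 were not called either (-0.24 and 0.25).

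Among 13 early granulocyte genes linked to Cebpa none was higher and 1 was lower, with a median log2 fold change of 0.01. This share is close to the 10.1% called over all genes, and 2 were called higher with scaling to total counts and without BcorWT library 2. Over the alternatives the median ran from -0.11 to 0.16. The gene called lower was Hp (haptoglobin), at 3998, 2470 and 3745 counts in BcorΔE9-10 and 5215 and 5715 in BcorWT (log2 fold change -0.85, limma adjusted p = 9.78e-05). The most abundant, Mpo (myeloperoxidase of primary granules), was not called (log2 fold change -0.09, limma adjusted p = 0.593). Elane, Prtn3 and Ctsg, the serine proteases of the same granules, had log2 fold changes of 0.12, -0.17 and 0.33, none called.

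The granule genes linked to Cebpe were the list with the most calls. Of 15, all tested, 9 were lower and none higher, beside 4.09% and 6.02% of all genes, and the median log2 fold change was -0.63. With total counts, no filter, the replicate block (with or without GC correction) or without BcorWT library 2, 1 gene of the list was called higher. The 9 included Ltf (lactoferrin), Ngp and Lcn2 of secondary granules, Mmp9 of tertiary granules, Chil3, Cd177 and Lyz2, and the eosinophil granule genes Prg2 and Epx. Epx had the largest difference, 65, 16 and 34 counts against 118 and 85 (log2 fold change -1.67, limma adjusted p = 0.00513), followed by Prg2 (-1.30, limma adjusted p = 7.73e-05). Camp, the most abundant, was not called (24926 ± 2096 CPM, SD, n = 3, against 21132 ± 3796 CPM, SD, n = 2; log2 fold change 0.25, limma adjusted p = 0.114). The summed level of the list was 49799 to 57203 CPM in BcorΔE9-10 and 65164 to 65189 CPM in BcorWT, while Cebpe itself was not called. Mmp9 and Retnlg of this list are also mature neutrophil markers and Prg2 and Epx also eosinophil markers, and the sums of both marker lists were lower in BcorΔE9-10, as given above. The neutrophil sum was mostly S100a8 and S100a9, which are not among the granule genes linked to Cebpe. The part of these cell types in the counts of this list was not tested.

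Of 15 inflammatory genes linked to Cebpb, 9 could be tested, none was higher, beside 6.02% of all genes, and 1, Il1rn (the antagonist of the interleukin 1 receptor), was lower, beside 4.09% of all genes (203, 127 and 189 counts against 523 and 309, log2 fold change -1.39, limma adjusted p = 0.00038). Nos2, Il10 and Csf3 had no count in any library, and Il1b had at most 23. The median log2 fold change of the 9 was -0.25, but it was 0.55 with no filter on low counts and 0.23 with at least 10 counts in every library, so it has no settled direction. The 6 genes outside the test had no more than 8 counts in any library.

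Amino acid response genes linked to Atf4 and Cebpg were called about as often as all genes (10.1%). Of 18, 15 were tested, 1 was higher and 1 lower, and the median log2 fold change was -0.10, or 0.04 with scaling to total counts. The higher gene was Cebpb, which belongs to the list. The lower gene was Asns (asparagine synthetase), at 21, 22 and 12 counts in BcorΔE9-10 and 64 and 73 in BcorWT (log2 fold change -2.13, limma adjusted p = 0.0024). Slc3a2, a subunit of amino acid transporters and the most abundant of the list, was not called (log2 fold change 0.01, limma adjusted p = 0.972).

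**Figure D5:**
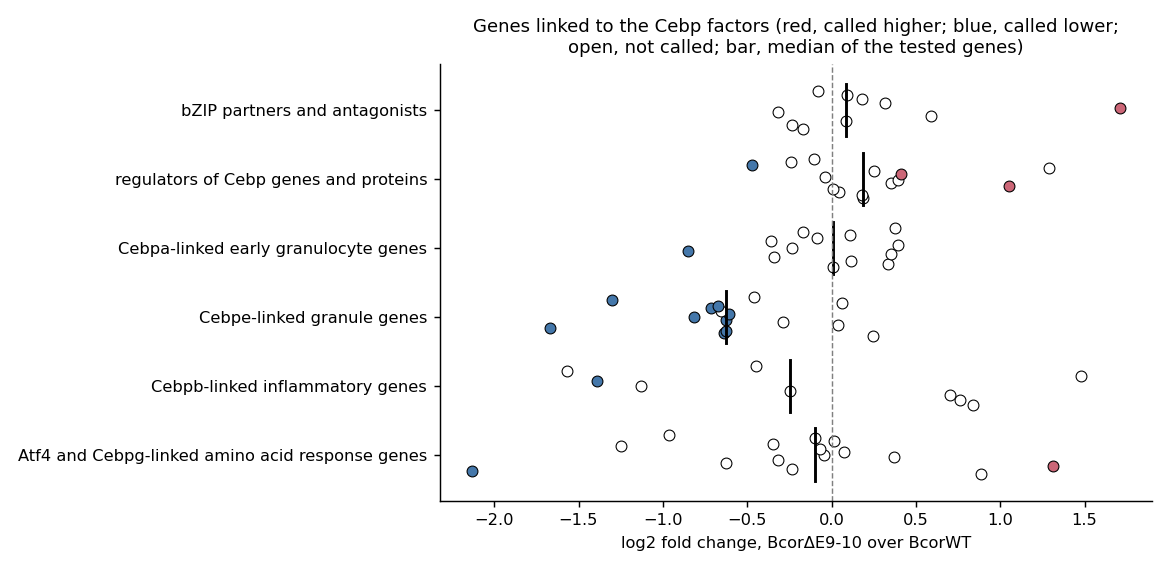
Log2 fold change (horizontal axis, BcorΔE9-10 over BcorWT) of the tested genes of the 6 gene lists around the Cebp factors, 1 point per gene, red where called higher, blue where called lower and open where not called, with a bar at the median of each list. The granule genes linked to Cebpe have 9 blue points and a median of -0.63, and the other medians lie between -0.25 and 0.18.

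The genes whose levels followed a Cebp gene most closely over the 5 libraries were listed by Pearson's r of log2 CPM among 3272 well expressed genes. For Cebpa these were Pgrmc2 (r = 0.9991), Alg8 (0.9960) and Timm17b (0.9887). For Cebpb they were Srsf11 (0.9977), Itm2c (0.9965) and Cetn3 (0.9961), of which only Cetn3, a centrosomal gene, was itself called (log2 fold change 0.60, limma adjusted p = 0.0143), a call lost after GC correction (0.14, limma adjusted p = 0.571) and without BcorWT library 1 (0.55, limma adjusted p = 0.0771). For Cebpe they were Anapc11 (0.9974), Mepce (0.9973) and Mum1 (0.9954). With 5 points such values are common: r was 0.9 or more for 4.49% of the genes with Cebpa, 6.66% with Cebpb and 5.32% with Cebpe. The points also share genotype and library, so these are descriptions only.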

How the data were processed

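RNA of KL cells was sequenced by the QuantSeq 3′ method in 3 BcorΔE9-10 and 2 BcorWT libraries, grouped by their titles. Per the labels and methods, the authors trimmed reads, aligned them to mm10 with HISAT2 and counted them per gene with featureCounts of Subread 1.5.0-p3. Options for strand and for reads with several alignments are not given in the sources used here. The table they deposited holds counts per gene that were not normalised, from 5998924 to 8303999 per library. A low count limits precision, as for Cebpg. Of 52550 genes, 52403 matched a symbol.

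Genes were filtered with filterByExpr (edgeR 4.0.16, minimum count 10, minimum total 15), scaled by TMM and tested with limma 3.58.1 on voom values in R 4.3.3, two-sided, with Benjamini-Hochberg adjustment over all genes. DESeq2 1.42.0, edgeR's quasi-likelihood test and other settings were alternatives. The count ratio was tested in SciPy 1.17.1. CPM are TMM-scaled. GC content was taken from the last 300 bases of the longest GENCODE M21 transcript and its trend removed by lowess (span 0.3). The fits were tested on simulated data.

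The Cebp genes and gene lists, taken from general knowledge, were chosen with earlier results of these data known. Genes named were the Cebp genes, the 2 called genes with the largest change and the most abundant gene of each list, the 3 closest correlates of Cebpa, Cebpb and Cebpe, and the neighbours of Cebpa and Cebpg. Others named in the lists, among the markers and for exon overlap were chosen after their values were seen. Protein sequences were not used here.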

Additional observations from a re-analysis of the deposited data

How the results depend on the processing

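Over the 6 Cebp genes and 16 alternatives each, 93 of 96 fold changes kept their direction and side of the threshold, 2 calls were lost, 1 was gained and none changed direction. Cebpb was called in all 16 (log2 fold change 1.14 to 1.5). With both controls kept, its limma adjusted p was at most 0.00668, and lowest, 3.91e-09, with the replicate block. That block leaves little to measure the spread between libraries by. Cebpg ranged from 0.56 to 1.51, Cebpa from -0.558 to -0.126, Cebpd from 0.0902 to 0.391, Cebpe from -0.298 to -0.0525 and Cebpz from 0.0282 to 0.404. The number of Cebp genes called was 1 to 2 when each library was left out, falling to 1 without BcorΔE9-10 replicate 2, and without BcorWT replicate 1 the 2 called were Cebpa and Cebpb. The number of all genes called ranged from 558 to 1200 without each library (774 without BcorΔE9-10 replicate 2, 723 without replicate 3, 558 without BcorWT replicate 1) and from 1002 to 1454 otherwise. Fits without a BcorWT library leave 1 control, assumed to vary like the other group. Scaling to total counts moved the median over all genes from 0.00434 to 0.149 (log2) and the share of calls that were higher from 59.5% to 86%.

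Without each library in turn the genes called ranged from 1 to 4 for the regulators (1 without BcorΔE9-10 replicate 1), 1 to 3 for the genes linked to Cebpa (2 without BcorWT replicate 1, 3 without replicate 2), 8 to 13 for those linked to Cebpe, 1 to 2 for those linked to Cebpb (2 without BcorWT replicate 2) and 2 to 3 for the amino acid response genes, and stayed at 1 for the bZIP partners. The genes linked to Cebpa called numbered 3 with total counts, 2 with no filter, 2 with the replicate block and 3 with the block and GC correction. With the replicate block 2 bZIP partners were called, and 4 amino acid response genes with the block, with or without GC correction. The causes were not tested. The labels link the same-numbered libraries by the number only (correlations of their deviations from the group means 0.0573 and 0.0667). The deviations of 2 controls mirror each other, so these correlations cannot settle whether the libraries were paired. With the replicate block 1454 genes and 2 Cebp genes were called and the Cebpa to Cebpb log2 ratio differed by -1.62, against -1.67 without it. BcorΔE9-10 replicate 3 has no control of its number, so with the block it adds nothing to the genotype difference. The ratio difference with the block is the same as without that library (-1.62).

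With 3 and 2 libraries the exact test of the ratio cannot reach 0.05. This exact permutation test gave p = 0.2, or 0.333 without a BcorΔE9-10 library, the smallest values possible, and the difference was -1.67 with 0.5 added to each count and -1.7 at equal depth.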
